A study of Bos taurus with 12 samples.

Results

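Day 7 endometrium from heifers whose later embryo transfer led to the birth of a calf was compared with that from heifers that did not conceive. The 6 arrays were taken from the 12 of the series by their labels: 3 arrays named CDd7 (calf delivery, day 7) and 3 named NPd7 (no pregnancy, day 7). The other 6 arrays, CDd14 and NPd14, hold day 14 biopsies of the same outcomes. They enter here through the filter, means over all 12 arrays, the shared estimate of the spread and a closing comparison. All animals were Simmental heifers, and the biopsies come from the cycle before embryo transfer, so the groups differ by what followed and not by a treatment. Ages are not stated. Each array holds RNA of 1 pool of endometrial samples, hybridised to an Affymetrix bovine array that reads transcripts near their 3' ends. The labels give neither the number of heifers in a pool nor whether a heifer gave tissue on both days, so the p-values measure only the spread among pools. Because each pool is bulk tissue, fewer cells of a type and less RNA per cell cannot be told apart.

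The bovine endometrium consists of a luminal and glandular epithelium over a stroma of fibroblasts and matrix, with vessels and resident immune cells. In the early luteal phase, rising progesterone from the new corpus luteum ends the proliferation driven by oestrogen and turns the glands toward secretion. The stroma carries much of the progesterone response, and its collagens, small proteoglycans and matricellular proteins are remodelled over the cycle. Secretions of this phase feed the embryo before it attaches.

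Of 24016 probe sets that are not array controls, 13449 had a log2 value above 4 on at least 3 of the 12 arrays and were kept, and they represent 6781 named genes, each by the probe set that was brightest on average. The array medians of the 6 day 7 arrays lay between 4.89 and 5.03 on the log2 scale. NPd7 pool 2 stood apart from its group: across kept probe sets its mean correlation was 0.972 with the other NPd7 pools and 0.974 with the CDd7 pools, whereas each of the other day 7 arrays correlated better with its own group. Counts are therefore given with and without it. The difference between 3' and 5' probe sets of control transcripts, which reflects RNA integrity and labelling, was 1.94 ± 0.19 in NPd7 and 1.65 ± 0.20 in CDd7 (log2, SD, n = 3; exact permutation test, two-sided p = 0.3). For transcripts added to the samples it was 5.06 ± 0.15 and 4.74 ± 0.07 (exact permutation test, two-sided p = 0.1, the smallest that 3 against 3 arrays allow). With the score of control transcripts, called the 3' to 5' score below, as a covariate 0 genes passed. All 236 changed genes kept their direction in that fit. Their median absolute log2 fold change was 0.89 (SE 0.25), beside 1.0 (SE 0.21) without the covariate. The score of added transcripts was not used as a covariate. As for the tissue, the epithelial adhesion protein EPCAM was far above the filter on all 6 arrays (15.26 to 15.34), while ESR1, PGR and HOXA10, which mark endometrium, stayed below the filter. At most 1.63 was reached by the single ESR1 probe set, 2.14 by that of PGR and 3.31 by that of HOXA10 on the day 7 arrays, so the receptors for oestrogen and progesterone have no usable value here.

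Between the outcomes, 236 genes (3.48%) changed at an adjusted p under 0.05 by limma with Benjamini-Hochberg adjustment: 99 (1.46%) rose and 137 (2.02%) fell in CDd7 relative to NPd7. Of these, 49 rose and 67 fell at least 2-fold, and the median size of the change was 1.0 on the log2 scale. The 3 CDd7 values lay outside the range of the 3 NPd7 values for each of the 236, as they did for 35.3% of the genes measured. At the level of probe sets 503 (3.74%) changed, of which 194 have no gene name in the annotation. At an unadjusted p under 0.05 there were 2062 genes (30.4%). The count of changed genes depended on single arrays: it was 875 without NPd7 pool 2, and 0 when NPd7 pool 1, NPd7 pool 3 or CDd7 pool 2 was left out (1325, 1195 and 1206 genes at an unadjusted p under 0.05). In each of these fits all 236 genes kept their direction, which was bound to happen because their groups do not overlap. In 26 of the 236, the lower group had a mean under the filter of 4, where GCRMA holds dim probe sets near a floor and a fold rests on values near background.

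**Figure D1:**
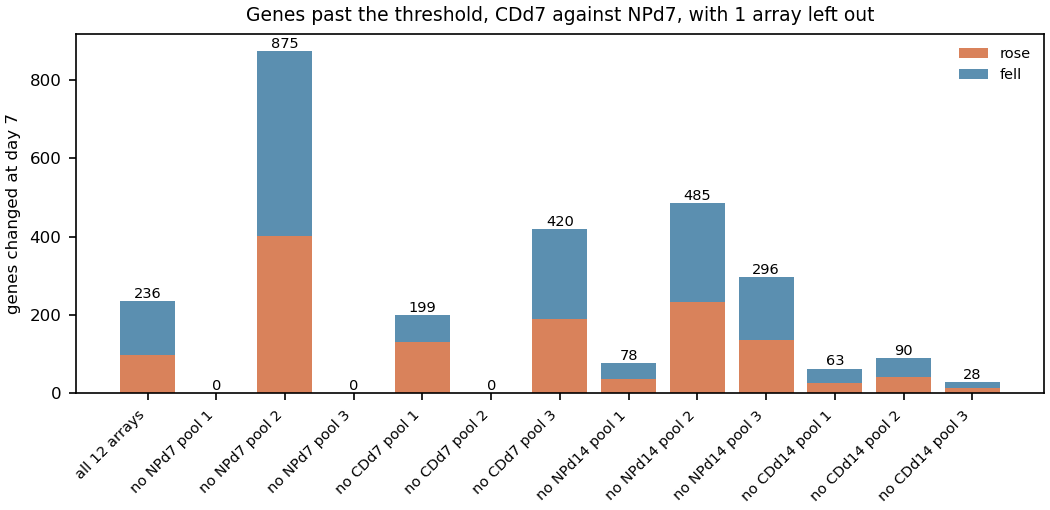
Number of genes past the limma threshold in CDd7 against NPd7 (y axis) with all 12 arrays and with each array left out in turn (x axis); bars are split into genes that rose and genes that fell. The count is 236 with all arrays, 875 without NPd7 pool 2 and 0 without NPd7 pool 1, NPd7 pool 3 or CDd7 pool 2.

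Genes of the stroma and its matrix were lower in the calf delivery group. Among the 16 stromal fibroblast markers that could be measured, 8 (50%) fell, beside 2.02% of all genes, 0 rose and 8 did not pass. The 8 include COL6A1, which was above 4 only on the NPd7 arrays and met the filter only through them. All 16 had lower means, as did 3478 of all 6781 genes. The median log2 fold change of the 16 was -2.28, against -0.01 over all genes. SPARC, a collagen-binding matricellular protein, was at 8.34, 8.39 and 9.04 (log2) in NPd7 pools 1 to 3 and at 4.35, 4.35 and 5.17 in CDd7 pools 1 to 3. The lowest NPd7 pool was thus far above the highest CDd7 pool, with a difference of -3.96 ± 0.80 on the log2 scale (SE; adjusted p = 0.0368 by limma). OGN, the small leucine-rich proteoglycan osteoglycin, was at 7.58, 8.12 and 9.02 in NPd7 and at 5.23, 3.15 and 5.79 in CDd7 (-3.52 ± 0.78, adjusted p = 0.0431). For LUM, lumican, a proteoglycan that spaces collagen fibrils, the values were 8.02, 7.60 and 9.16 against 5.34, 4.78 and 5.52 (-3.05 ± 0.61, adjusted p = 0.0368). The groups were well separated for each of these matrix proteins, with NPd7 pool 3 the highest array for each. PDGFRA, the platelet-derived growth factor receptor carried by fibroblasts, fell from 7.90, 7.36 and 8.27 to 6.28, 5.31 and 6.69 (-1.75 ± 0.39, adjusted p = 0.0432). Among the markers that did not pass, DCN (decorin) had a log2 fold change of -3.58 ± 1.0 (adjusted p = 0.0637) and VIM (vimentin) -1.40 ± 0.44 (adjusted p = 0.0783), while THY1 differed by -0.05. The summed level of the 16 markers (log2 of the sum of linear values) ranged from 14.41 to 15.15 in NPd7 and from 13.55 to 14.02 in CDd7, and COL1A1, a defining marker, did not pass the filter (2.27 to 4.24 on the day 7 arrays over its 2 probe sets). Leaving out an array gave 9 fallen markers without NPd7 pool 2 and 0 without NPd7 pool 1, NPd7 pool 3 or CDd7 pool 2. Omission of CDd7 pool 1 left 2, that of NPd14 pool 2 gave 10, and CDd14 pools 1, 2 and 3 gave 3, 2 and 1.

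Chains of the fibrillar collagens fell. COL3A1, the chain of type III collagen, was at 11.88, 11.44 and 13.06 in NPd7 and 9.27, 8.50 and 9.76 in CDd7, and its other kept probe set moved the same way (-3.29, adjusted p = 0.0447). COL1A2, a chain of type I collagen, was at 11.39, 9.88 and 12.09 against 8.04, 7.12 and 8.60, with its second probe set at -3.98 (adjusted p = 0.0622). NPd7 pool 2 was the lowest NPd7 array for both, yet above each CDd7 array. COL6A1, of the beaded filaments of type VI collagen, went from 5.83, 4.79 and 6.92 to 2.53, 1.22 and 3.24, all under the filter in CDd7. It met the filter only through the NPd7 arrays, which limits its weight in the count of fallen collagens below. COL21A1, a collagen associated with fibrils, was at 7.94, 7.76 and 8.49 against 5.71, 3.75 and 4.5. Of the 16 collagens and proteins of collagen maturation measured, 6 (37.5%) fell, beside 2.02% of all genes, and 0 rose (median -0.78). They include the enhancer of procollagen processing PCOLCE, at 7.40, 6.19 and 8.29 against 4.56, 3.72 and 5.16, and FKBP10, a chaperone of procollagen in the endoplasmic reticulum, at 7.88, 7.67 and 7.31 against 6.44, 5.78 and 6.61. COL15A1 fell 4.31-fold. COL27A1, a fibrillar collagen outside the lists and named after its values were seen, fell from 9.71, 9.47 and 10.39 to 8.23, 7.51 and 8.36. With the stromal score of each array as a covariate, which these genes help to make up, 0 passed and COL1A2, COL3A1 and OGN had 0.28, 0.25 and 0.35. The count of fallen collagens was 7 without NPd7 pool 2, 0 without NPd7 pool 1, NPd7 pool 3 or CDd7 pool 2, 2 without CDd7 pool 1, and 4, 3 and 1 without CDd14 pools 1, 2 and 3.

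**Figure D2:**
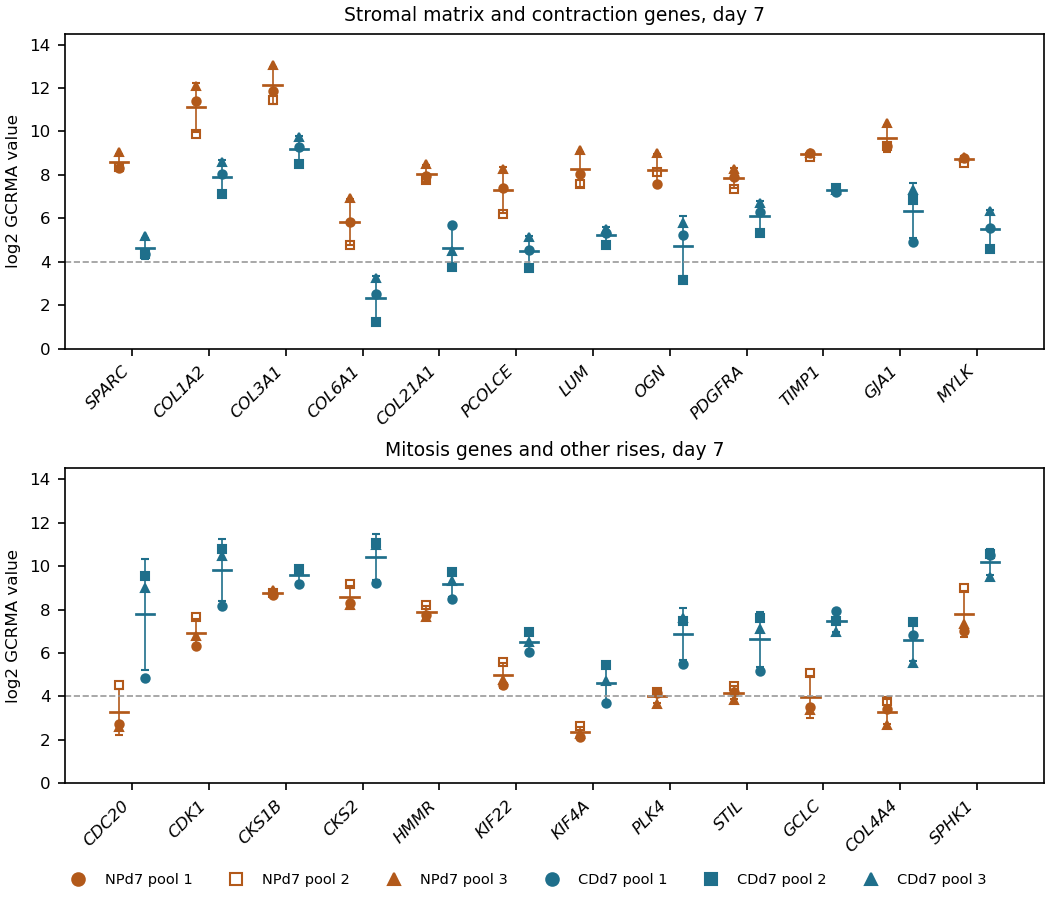
Deposited log2 GCRMA value (y axis) of matrix and contraction genes (upper panel) and of mitosis genes and other rises (lower panel) on each day 7 array; marker shapes give the pool, the open square is NPd7 pool 2, horizontal bars and error bars are the mean ± SD of 3 pools, and the dashed line is the filter of 4. The NPd7 and CDd7 values do not overlap for any gene shown, and CDd7 pool 1 lies well below the other CDd7 pools for CDC20 and CDK1.

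Of 19 matrix proteoglycans and glycoproteins measured, 4 (21.1%) fell, beside 2.02% of all genes, and 0 rose (median -0.85, and -0.53 without CDd7 pool 1). They were SPARC, OGN, LUM and the SPARC relative SPARCL1, the last at 5.38, 5.02 and 6.30 against 3.08, 3.04 and 3.87. The basement membrane under epithelium and vessels moved in both directions. The laminin chain LAMC1 fell from 9.64, 9.41 and 9.62 to 8.76, 8.69 and 8.95, and LAMB2 from 7.19, 7.32 and 7.82 to 6.24, 5.88 and 6.31. Dimmer kept probe sets of LAMC1 had -0.02 and -0.65 (adjusted p = 0.904 and 0.125 by limma). COL4A4, a chain of the type IV collagen of specialised basement membranes, rose from 3.41, 3.81 and 2.68, all under the filter, to 6.84, 7.42 and 5.53 (3.30 ± 0.49, adjusted p = 0.0219). Thus 1 of 8 basement membrane genes rose and 2 fell. TIMP1, which inhibits matrix metalloproteinases, varied little within a group: it was at 9.02, 8.81 and 9.03 in NPd7 and 7.22, 7.40 and 7.29 in CDd7 (-1.65 ± 0.32, adjusted p = 0.0336), and it was the single member of 18 matrix proteases and inhibitors to pass. With only the 6 day 7 arrays in the fit, TIMP1 and SPARC were the 2 genes that passed. A dimmer probe set of MYLK, a kinase described below, passed in that fit too (-2.87, adjusted p = 0.0161 by limma). The brighter MYLK probe set, which represents the gene, did not (adjusted p = 0.0856). Without NPd7 pool 1, NPd7 pool 3 or CDd7 pool 2 none of these matrix and basement membrane genes passed.

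Other large falls were in single genes of varied function. GJA1, the gap junction protein connexin 43, was at 9.32, 9.33 and 10.39 in NPd7 and 4.93, 6.83 and 7.32 in CDd7 (-3.32 ± 0.54, adjusted p = 0.0239). MYLK, the kinase that phosphorylates myosin light chain, was at 8.79, 8.57 and 8.82 against 5.56, 4.59 and 6.34, and a second MYLK probe set fell by 2.87 (adjusted p = 0.0115). Both genes were nearly level across the NPd7 pools and spread more among the CDd7 pools, except for GJA1 in NPd7 pool 3. Of 36 genes of cell junctions and adhesion, 2 rose and 2 fell, and of 38 genes of the cytoskeleton and contractile signalling 1 (2.63%) fell, beside 2.02% of all genes. Smooth muscle itself was hardly measured: ACTA2, TAGLN, MYH11 and DES were below the filter, and 3 of the list's 19 genes were kept. HOXA9, a homeobox factor of the reproductive tract, went from 7.42, 6.63 and 8.29 to 4.54, 3.37 and 5.0 (-3.14 ± 0.61, adjusted p = 0.0336), the single change among 21 developmental transcription factors. SCARA5, a scavenger receptor that takes up ferritin, was at 11.17, 10.66 and 10.24 against 7.87, 7.57 and 8.35 (-2.76 ± 0.49, adjusted p = 0.0287). LPAR6, a receptor for lysophosphatidic acid, was at 8.15, 7.59 and 7.89 against 5.78, 4.14 and 5.73. NTRK2, a neurotrophin receptor, and CNRIP1, a protein that binds the cannabinoid receptor, fell 7.98-fold and 8.63-fold to means under the filter. NTRK2 was above 4 only on the NPd7 arrays and thus met the filter only through the group where it is high. CDH11, the cadherin of mesenchymal cells, fell to 3.18, 3.27 and 3.31 from 5.49, 5.27 and 6.34. Smaller falls with tight groups were those of CAVIN1, a coat protein of caveolae (4.34, 4.36 and 4.95 against 2.95, 3.24 and 3.04), and of the calcium-binding S100A16 (7.42, 6.58 and 6.98 against 4.90, 5.07 and 5.75). The G protein subunit GNG11 was at 12.97, 12.74 and 12.44 against 11.69, 11.65 and 11.45.

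Growth factor genes that passed fell. FGFBP1, a secreted carrier that frees fibroblast growth factors from the matrix, had the smallest adjusted p of the falls together with CAVIN1 (0.0124). It was at 7.55, 7.22 and 7.67 in NPd7 and 5.18, 5.0 and 5.78 in CDd7, a log2 fold change of -2.16 ± 0.28. FGF2, a fibroblast growth factor itself, was at 7.80, 6.98 and 8.0 against 5.39, 6.22 and 6.61. Of 22 growth factors, receptors and binding proteins, 3 fell (the third being PDGFRA) and 0 rose, with a median of -0.18 (0.38 with the stromal score as a covariate, -0.47 with the 3' to 5' score and -0.06 without CDd7 pool 2, for growth factors, receptors and binding proteins). That is 13.6% of the list, beside 2.02% of all genes that fell. Among 18 immediate early genes 2 (11.1%) fell. MYC, a transcription factor of growth and proliferation, was at 10.97, 9.76 and 10.58 against 9.14, 8.86 and 9.30, and GADD45A, a stress-induced inhibitor of the cell cycle, was at 11.13, 10.72 and 10.94 against 10.08, 9.97 and 10.48. Without NPd7 pool 2, 2 growth factor genes rose and 4 fell. Without CDd7 pool 1, NPd14 pool 1 or CDd14 pool 1, 2 or 3 the number fallen was 1, and it was 0 without NPd7 pool 1, NPd7 pool 3 or CDd7 pool 2.

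Several genes of lymphocytes and of innate immunity were lower in the calf delivery group. Of 13 T and natural killer cell markers, 3 (23.1%) fell, beside 2.02% of all genes, and 0 rose. All 13 had a lower mean in CDd7 (median -1.16), as did 3478 of all 6781 genes. CD8A, a chain of the co-receptor of cytotoxic T cells, was at 8.26, 7.99 and 8.84 in NPd7 and 6.88, 5.82 and 7.32 in CDd7 (-1.69 ± 0.40, adjusted p = 0.0474). CD8B, the partner chain, was at 4.67, 4.45 and 5.30 against 3.09, 3.30 and 3.59, and LCK, the kinase bound to the co-receptors, at 9.32, 8.72 and 9.63 against 8.18, 7.24 and 8.39, while a second LCK probe set had -0.63 (adjusted p = 0.125). The T cell receptor subunits CD3D (-1.16 ± 0.61, adjusted p = 0.222) and CD3E (-0.87 ± 0.62, adjusted p = 0.361) did not pass, and their groups overlapped. The median of the 13 markers was -0.66 without CDd7 pool 2, -0.55 with the control transcript score as a covariate and 0.30 with the stromal score. Its direction thus turned in that last fit. As a mean deviation from all 12 arrays, the marker list (T and natural killer cell markers) stood at 0.49, -0.24 and 1.02 in NPd7 and at -0.54, -1.49 and -0.14 in CDd7, so NPd7 pool 2 lay within the CDd7 range. Summed levels ranged from 11.22 to 12.56 in NPd7 and from 9.98 to 11.37 in CDd7. The list's fallen members numbered 4 without NPd7 pool 2, 1 without CDd7 pool 1, NPd14 pool 1 or CDd14 pool 1, 2 or 3, and 0 without NPd7 pool 1, NPd7 pool 3 or CDd7 pool 2.

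Of the innate genes, complement factor D (CFD), the protease that starts the alternative pathway, was at 7.91, 7.48 and 8.49 in NPd7 and 6.70, 6.37 and 6.63 in CDd7. COLEC12, a collectin of the cell surface, was at 4.47, 5.66 and 5.85 against 3.43, 3.36 and 3.44. These were the 2 of 17 complement genes that passed (11.8%, beside 2.02% of all genes that fell), and 15 of the 17 had a lower mean in CDd7. The mucosal chemokine CCL28, which draws cells that secrete IgA, was at 10.12, 9.48 and 9.998 against 8.81, 7.75 and 8.89. IL18, an inflammatory cytokine of epithelia, was at 10.47, 9.79 and 10.41 against 9.11, 8.28 and 9.32. They were the 2 (7.14%) of 28 cytokines, chemokines and receptors that passed, with 0 risen. The signalling kinases IKBKE (-1.56 ± 0.35), IKBKB (-0.69 ± 0.16) and IRAK4 (-0.64 ± 0.14), which act on the NF-kB and Toll-like receptor pathways, also fell, as did C5AR2 (-1.55 ± 0.34), a receptor of the complement fragment C5a. These 4 were named after their values were seen. A further kept probe set of IRAK4 had -0.23 (adjusted p = 0.455 by limma). Without NPd7 pool 2, 6 cytokine and 2 complement genes fell, and without CDd14 pool 3 none of either list passed.

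Of the markers of other blood cells, GYPC, a glycoprotein of the red cell membrane, fell from 8.37, 8.81 and 9.07 to 7.90, 7.32 and 8.11 (-0.98 ± 0.22, adjusted p = 0.0434), and it was the 1 of 3 measured red cell markers to pass. JCHAIN, the joining chain of IgA and IgM, had a log2 fold change of -3.49 ± 1.22 (adjusted p = 0.10), and the neutrophil proteins S100A12 and S100A8 had -2.66 ± 0.87 (adjusted p = 0.0854) and -2.62 ± 1.07 (adjusted p = 0.139). Their large standard errors come with wide spreads within the groups: S100A8 had an SD of 1.58 in NPd7 and 1.70 in CDd7. Of the 4 B and plasma cell markers measured, all had lower means in CDd7, and of 5 neutrophil markers 3 had. Macrophage and dendritic cell markers had a median of -0.39 over 9 genes, with FCGR2B, an inhibitory Fc receptor, at -2.10 ± 0.72 (adjusted p = 0.0958). The globins HBA and HBB were below the filter. No B cell, neutrophil or macrophage marker passed, and without NPd7 pool 1, NPd7 pool 3 or CDd7 pool 2 GYPC did not pass. Interferon-stimulated genes showed 0 changes among 42 and a median of -0.10, with ISG15 at 0.22 ± 0.64 and MX1 at 0.28 ± 0.29 (adjusted p = 0.845 and 0.532). At an unadjusted p under 0.05, 2 of these 42 were higher and 3 lower, and 0 of the 22 antigen presentation genes passed.

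**Figure D3:**
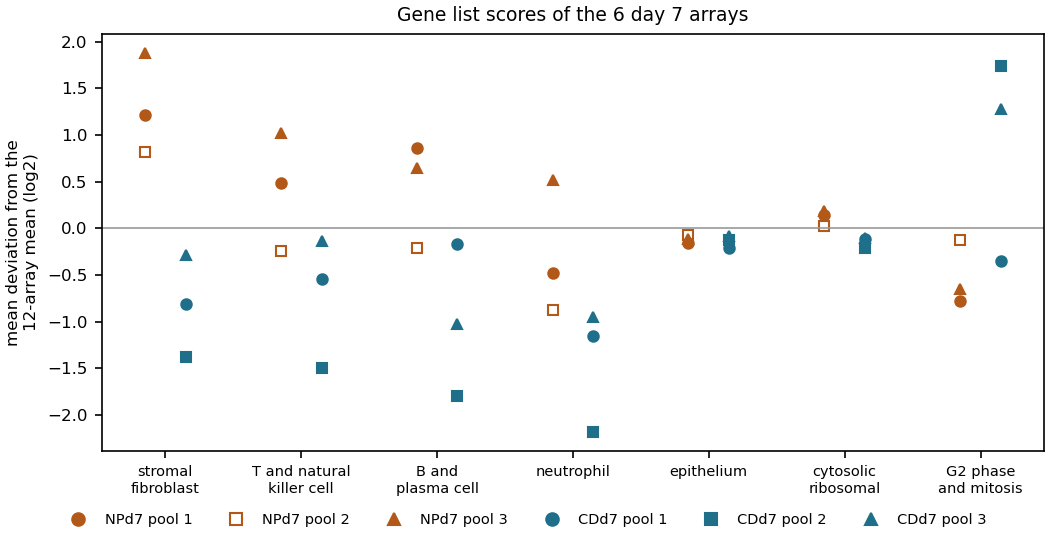
Mean deviation of each gene list from its mean over the 12 arrays (y axis, log2) on each day 7 array, for cell type markers, cytosolic ribosomal proteins and mitosis genes (x axis); marker shapes give the pool and the open square is NPd7 pool 2. The stromal list separates the groups, from 0.82 to 1.88 in NPd7 and from -1.38 to -0.29 in CDd7, while the epithelium list stays between -0.21 and -0.07 on the 6 arrays.

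No epithelium marker passed the test. Of 18 measured by limma 0 passed, 7 were higher and 11 lower, with a median of -0.07; at an unadjusted p under 0.05, 2 were higher and 4 lower. The summed level of the list was 16.62 to 16.64 in NPd7 and 16.47 to 16.58 in CDd7. KRT7, a simple epithelial keratin, had a log2 fold change of -0.99 ± 0.29 and AGR2, a secretory disulphide isomerase, -0.84 ± 0.23 (adjusted p = 0.0701 and 0.0603). The adhesion gene CDH1 had 0.27 ± 0.13 (adjusted p = 0.184). All 5 measured ciliated cell markers had higher means in CDd7 (median 0.45) with overlapping groups, for example TEKT1 at 0.74 ± 0.67 (adjusted p = 0.476). Endothelium could not be followed, since PECAM1, CDH5 and VWF were below the filter. The 1 endothelium marker kept, CLDN5, a tight junction protein that some epithelia also make, rose from 3.21, 4.75 and 4.08 to 7.21, 5.79 and 6.17.

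Genes of mitosis were higher in the calf delivery group, mainly in CDd7 pools 2 and 3. Of 52 measured genes of G2 phase and mitosis, 8 (15.4%) rose, beside 1.46% of all genes, 0 fell and 44 did not pass. In CDd7 50 of the 52 had a higher mean, as did 3303 of all 6781 genes, and the list's median was 1.47. CDK1, the kinase that drives entry into mitosis, was at 6.34, 7.64 and 6.79 in NPd7 and 8.16, 10.80 and 10.48 in CDd7 (2.89 ± 0.62, adjusted p = 0.0398). CDC20, which activates the anaphase-promoting complex, was at 2.75, 4.52 and 2.58 against 4.85, 9.53 and 8.99 (4.51 ± 1.02, adjusted p = 0.0450). In both, CDd7 pool 1 lay just above NPd7 pool 2 while the other CDd7 pools were far higher. PLK4, the kinase that starts centriole duplication, was at 4.17, 4.22 and 3.64 against 5.48, 7.48 and 7.63 (2.85 ± 0.47, adjusted p = 0.0253). KIF4A and KIF22, motors that move chromosomes, were at 2.12, 2.65 and 2.25 against 3.71, 5.47 and 4.69 and at 4.54, 5.61 and 4.76 against 6.04, 6.95 and 6.5. The subunits of cyclin-dependent kinases CKS2 (8.28, 9.18 and 8.23 against 9.21, 11.07 and 10.99) and CKS1B (8.69, 8.76 and 8.88 against 9.19, 9.87 and 9.76) rose too. HMMR, a spindle protein, rose 2.46-fold on its brighter probe set, while the other had 0.31 (adjusted p = 0.190). In contrast the B cyclins did not pass, with CCNB1 at 1.84 ± 0.97 and CCNB2 at 2.29 ± 0.78 (adjusted p = 0.228 and 0.0940).

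The unevenness within CDd7 was a feature of the whole G2 phase and mitosis list. Its mean deviation from the 12 arrays was -0.78, -0.12 and -0.65 in NPd7 pools 1 to 3 and -0.35, 1.74 and 1.28 in CDd7 pools 1 to 3, so that CDd7 pool 1 lay within the NPd7 range. Without CDd7 pool 1, 33 of the 52 rose (median 2.06), and without NPd7 pool 2, 12 rose (median 1.62). The number was 3 without CDd7 pool 3, and 0 without NPd7 pool 1, NPd7 pool 3 or CDd7 pool 2, where the medians were 1.27, 1.40 and 1.01. With the stromal score of the arrays as a covariate the median was 0.69 and 0 rose, and with the 3' to 5' score it was 1.08 and 0 rose. Leaving out day 14 arrays gave 2 without CDd14 pool 1 or 3 and 3 without NPd14 pool 1 or CDd14 pool 2. Genes of G1 phase, S phase and DNA replication did not follow: 1 of 50 rose, 0 fell, 20 were higher and 30 lower, with a median of -0.12. That 1 was CHAF1A, a subunit of the chromatin assembly factor that loads histones behind the fork, at 7.88, 8.27 and 7.61 against 8.71, 8.70 and 8.68. PCNA, the sliding clamp of replication, had 0.18 ± 0.09 and the helicase subunit MCM3 -0.24 ± 0.18 (adjusted p = 0.212 and 0.391). At an unadjusted p under 0.05, 8 of the 50 were higher and 4 lower.

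A few single genes with known roles at the centriole or cilium rose, while others such as TTLL3 and CCDC112, named after their values were seen, fell. No list of centriole genes was tested, and of the 5 ciliated cell markers measured 0 passed. STIL, a partner of PLK4 in centriole assembly, was at 4.19, 4.48 and 3.85 in NPd7 and 5.17, 7.59 and 7.11 in CDd7 (2.45 ± 0.49, adjusted p = 0.0368). Named after their values were seen, the centriolar POC1A (1.88 ± 0.44) and CEP120 (0.77 ± 0.17) and the ciliary proteins TULP3 (1.46 ± 0.28) and BBS5 (0.93 ± 0.22) rose as well. Another kept CEP120 probe set had 0.12 (adjusted p = 0.497 by limma). TULP3, which carries receptors into the cilium, was at 6.16, 6.33 and 6.17 against 7.27, 8.23 and 7.54. For the 5 risen genes given here, CDd7 pool 2 was the highest of the 6 arrays.

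**Figure D4:**
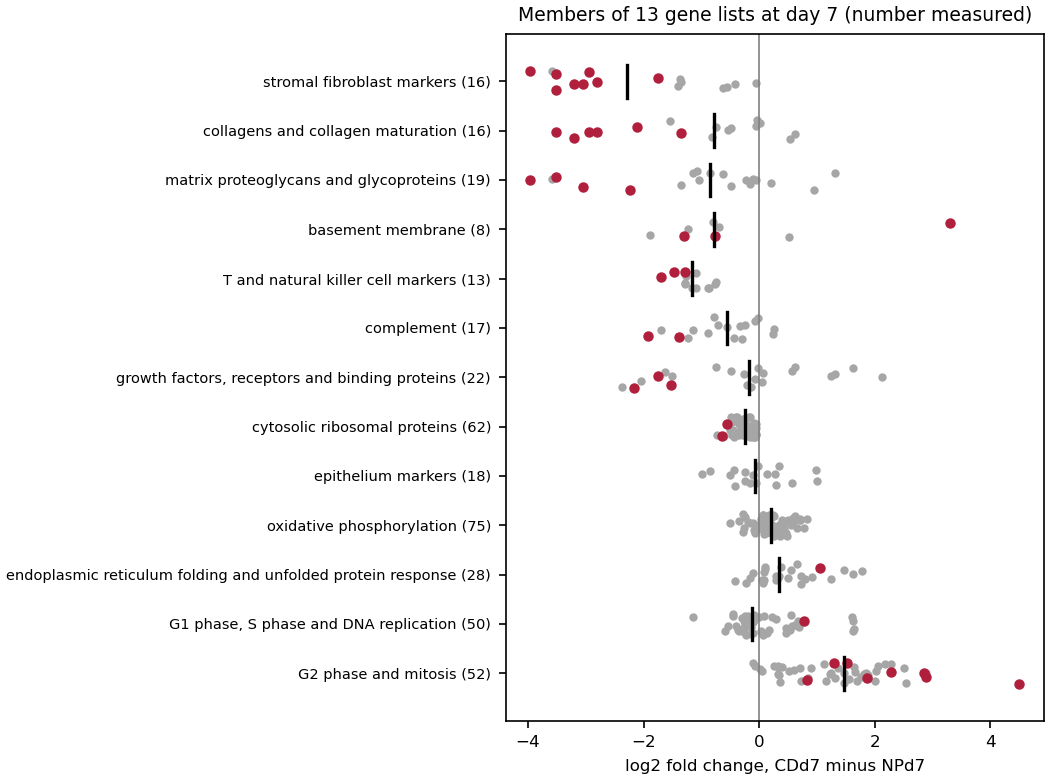
Log2 fold change of CDd7 minus NPd7 (x axis) for each measured member of gene lists (y axis, number measured in brackets); red points passed the limma threshold, grey points did not, and black bars are medians. The stromal list has its median at -2.28 and the mitosis list at 1.47, while the epithelium list (-0.07) and the ribosomal list (-0.24) lie close to 0.

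The rises outside the cell cycle were in genes of several functions. GCLC, the catalytic subunit of the enzyme that starts glutathione synthesis, was at 3.51, 5.10 and 3.36 in NPd7 and 7.92, 7.45 and 6.98 in CDd7 (3.46 ± 0.51, adjusted p = 0.0219). It was the 1 member of 36 genes of glutathione synthesis and oxidant defence to pass, and the list's median was -0.02. SPHK1, which makes the lipid signal sphingosine 1-phosphate, was at 7.02, 8.99 and 7.33 against 10.51, 10.56 and 9.49, and the neutral sphingomyelinase SMPD2 fell from 9.43, 8.85 and 9.42 to 8.41, 8.50 and 8.66. TCAF2, a regulator of a cold-sensing ion channel, was at 5.12, 7.12 and 5.10 against 9.14, 9.47 and 8.40. TMEM163, a zinc transporter of vesicles, was at 2.35, 4.94 and 2.01 against 6.72, 6.80 and 5.56. In GCLC, SPHK1, TCAF2 and TMEM163 alike, NPd7 pool 2 was the highest NPd7 array and lay nearest to CDd7. RAB9B, a GTPase of late endosomes, was at 5.04, 6.19 and 4.6 against 8.82, 7.78 and 7.38. F2R, the thrombin receptor, was at 5.11, 5.72 and 4.73 against 6.43, 8.27 and 7.2, and the junctional adhesion molecule JAM3 at 4.58, 4.79 and 4.57 against 6.10, 7.90 and 6.56.

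Among regulators, HEY1, a repressor induced by Notch signalling, rose from 3.82, 3.93 and 3.71 to 5.25, 5.66 and 4.65 (1.36 ± 0.21, adjusted p = 0.0219). LRP5, a co-receptor of Wnt ligands, rose from 7.28, 7.93 and 7.67 to 8.73, 8.48 and 8.23 and was the 1 of 20 Wnt pathway genes to pass. BCL2, an inhibitor of apoptosis, was at 10.09, 10.29 and 10.08 against 10.78, 11.02 and 10.69, and its 3 other kept probe sets had 1.26 (adjusted p = 0.0626), 1.23 (adjusted p = 0.141) and -0.34 (adjusted p = 0.192). BNIP3, a mitochondrial protein of cell death and mitophagy, was at 10.57, 10.75 and 10.80 against 11.09, 11.38 and 11.22. SMS, spermine synthase, named after its values were seen, was at 9.21, 10.03 and 8.89 against 10.89, 11.17 and 10.64. Also named afterwards, TCN2, the carrier of vitamin B12, rose by 1.23 ± 0.23 on its brightest probe set, while 4 others had -0.47, -0.70, -0.05 and 0.30. Among 38 changed genes with further kept probe sets, 38 of the 49 further probe sets had the direction of the call, 11 of them past the threshold, and 0 of the 11 opposite ones passed.

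Ribosomal protein genes were slightly lower. All 62 measured cytosolic ribosomal protein genes had a lower mean in CDd7, as did 3478 of all 6781 genes. In 44 of the 62 every CDd7 value lay below every NPd7 value, beside 18.6% of all genes. The median was small, at -0.24, and 2 (3.23%) fell, close to the 2.02% of all genes that fell. RPL13 was at 13.63, 13.33 and 13.73 against 13.13, 12.74 and 12.92, and RPS9 at 12.78, 12.64 and 12.90 against 12.34, 12.13 and 12.20. Omitting NPd7 pool 2 gave 12 falls and omitting NPd14 pool 2 gave 7, while the number was 0 without NPd7 pool 1, NPd7 pool 3, CDd7 pool 2, NPd14 pool 1 or CDd14 pool 1, 2 or 3. Among 39 translation factors 2 (5.13%) fell: EIF4EBP1, a repressor of cap-dependent initiation (10.33, 9.81 and 10.33 against 8.69, 8.98 and 9.36), and the initiation factor subunit EIF3H (13.48, 13.03 and 13.45 against 12.61, 12.21 and 12.72). Of all 39 translation factors, 18 were higher and 21 lower.

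Protein folding and energy genes mostly had higher means in CDd7, with few or no calls. Over all 6781 genes, 3303 had higher means, 1.46% rose and 30.4% had an unadjusted p under 0.05 by limma in either direction. Of 28 genes of endoplasmic reticulum folding, 24 were higher (median 0.34) and 1 rose: CALR, the chaperone calreticulin, from 8.27, 8.30 and 7.88 to 9.41, 9.31 and 8.91. Of 32 heat shock genes 1 (3.12%) rose, beside 1.46% of all genes, HSPA2, a member of the HSP70 family, from 9.08, 9.72 and 8.54 to 10.27, 11 and 10.25. Of 75 oxidative phosphorylation genes 62 were higher (median 0.21) and 0 passed by limma, with 14 higher and 1 lower at an unadjusted p under 0.05. Of 39 genes of glycolysis and the citric acid cycle 30 were higher (median 0.35) and 0 passed, with 14 higher and 4 lower unadjusted. IDH3A, a subunit of the isocitrate dehydrogenase of that cycle, had 1.36 ± 0.35 and citrate synthase (CS) 0.66 ± 0.17, both with an adjusted p of 0.0556 and groups that did not overlap. Cholesterol and fatty acid synthesis genes were higher in 26 of 30 (median 0.33) with 0 past the threshold, and MVK, mevalonate kinase, was among the 4 lower, at -0.71 ± 0.19 (adjusted p = 0.0592). Unadjusted, 4 of those 30 were higher and 3 lower. SLC25A20, which carries acylcarnitines into mitochondria for oxidation, fell from 10.86, 9.84 and 10.73 to 9.22, 8.84 and 9.65, the 1 change among 28 genes of fatty acid uptake and oxidation. Its dimmer kept probe set had -0.52 (adjusted p = 0.202 by limma). CD36, a fatty acid receptor, had -1.86 ± 0.54 (adjusted p = 0.0696).

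Genes known for endometrial receptivity and secretion gave few differences at this day. OXTR, the oxytocin receptor, was at 10.27 ± 0.72 in NPd7 and 10.35 ± 0.64 in CDd7 (SD, n = 3), a log2 fold change of 0.08 ± 0.43. LPL, lipoprotein lipase, had 1.86 ± 0.91, SPP1, osteopontin, 1.06 ± 1.14, and SERPINA14, the uterine milk protein, 1.31 ± 1.33 from a mean of 3.53, under the filter (adjusted p = 0.195, 0.549 and 0.524). MSTN, myostatin, had 2.86 ± 1.90 (adjusted p = 0.328) with an SD of 2.93 in NPd7 and 1.80 in CDd7, so the spread among the NPd7 pools was as large as the difference. PTGER4, a receptor of prostaglandin E2, had 1.48 ± 0.45 (adjusted p = 0.0751), and 0 of 13 prostaglandin pathway genes passed (1 higher and 1 lower unadjusted). NR3C1, the glucocorticoid receptor, had -0.95 ± 0.35 (adjusted p = 0.112), and 0 of 21 genes of steroid receptors and metabolism passed (3 higher and 3 lower unadjusted). These values leave room for sizeable differences, as the standard errors of LPL, SPP1, SERPINA14 and MSTN are near or above 1 on the log2 scale.

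Some genes passed in every fit with 1 array left out that called any gene. Of the 12 fits that each omit 1 array, 26 genes passed in 9, and 0 passed in 10 or more. More than 9 was not possible, since no gene passed without NPd7 pool 1, NPd7 pool 3 or CDd7 pool 2. Fits that omit a day 14 array keep the day 7 fold change and alter only the estimate of the spread. With only the day 7 arrays in the fit, none of these 26 passed. Among those 26 were FGFBP1, CAVIN1, GCLC, COL4A4, COL6A1, GJA1, SCARA5, PLK4, KIF4A, CD8B, S100A16, GNG11 and HEY1, described above. AMT, an enzyme of glycine cleavage, was at 5.17, 5.06 and 5.50 in NPd7 and 4.41, 4.34 and 4.20 in CDd7. RABGEF1, an activator of the endosomal GTPase RAB5, was at 8.54, 8.98 and 8.30 against 9.81, 10.04 and 9.60. FAM81B was at 3.55, 3.75 and 3.49 against 4.41, 4.66 and 4.71. TEX30 was at 7.95, 7.85 and 7.82 against 8.85, 9.54 and 9.89, and TMEM42 at 9.25, 8.88 and 9.23 against 8.35, 8.0 and 8.01. COL4A4, HEY1 and FAM81B were above 4 only on the CDd7 arrays, and COL6A1 only on the NPd7 arrays. These genes thus met the filter only through the group where they are high, and their other values lay under it.

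The 6 day 14 arrays give the same contrast at the later day. They are not an independent check, because they enter the filter and the spread of the day 7 comparison and may hold the same heifers. Deviations of same-numbered NPd7 and NPd14 pools correlated at 0.16, 0.62 and 0.51. There 1 gene (0.0147%) passed and 430 (6.34%) had an unadjusted p under 0.05. Of the 236 genes changed at day 7, 0 passed at day 14, 27 (11.4%) had an unadjusted p under 0.05 there and 161 (68.2%) had the same sign. Of the 99 risen genes 62.6% were also higher at day 14, as were 62.5% of all genes that were higher at day 7, and 2 had an unadjusted p under 0.05 with the same sign (116 of the 3303 higher genes). Of the 137 fallen genes 72.3% were also lower at day 14, beside 51.4% of all genes lower at day 7, and 20 had an unadjusted p under 0.05 with the same sign (160 of the 3478 lower genes). None of these differences was tested. The median log2 fold change at day 14 was -0.17 for the fallen and 0.10 for the risen.

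For 4 fallen genes the difference between outcomes was also large at day 14. GJA1 was at 9.64, 9.30 and 10.10 in NPd14 and 6.41, 6.45 and 6.18 in CDd14, which is -3.33 ± 0.54 on the log2 scale (adjusted p = 0.123 by limma) beside -3.32 at day 7. SCARA5 was at 9.40, 9.41 and 8.38 against 6.36, 5.18 and 7.21 (-2.81 ± 0.49, adjusted p = 0.182, beside -2.76 at day 7), HOXA9 at 7.39, 7.30 and 8.29 against 5.48, 3.65 and 5.39 (-2.82 ± 0.61, adjusted p = 0.291, beside -3.14), and S100A16 at 5.95, 5.80 and 6.49 against 4.55, 4.80 and 4.79 (-1.37 ± 0.28, adjusted p = 0.258, beside -1.75). The groups did not overlap on either day for these 4 genes, though over all genes none of them passed at day 14. Among the collagens at day 14, COL3A1 had -0.61, COL1A2 -0.94 and COL6A1 -0.27, and the stromal list a median of -0.50. The mitosis list had a median of -0.02 at day 14 and GCLC and COL4A4 had -0.08 and -0.02.

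**Figure D5:**
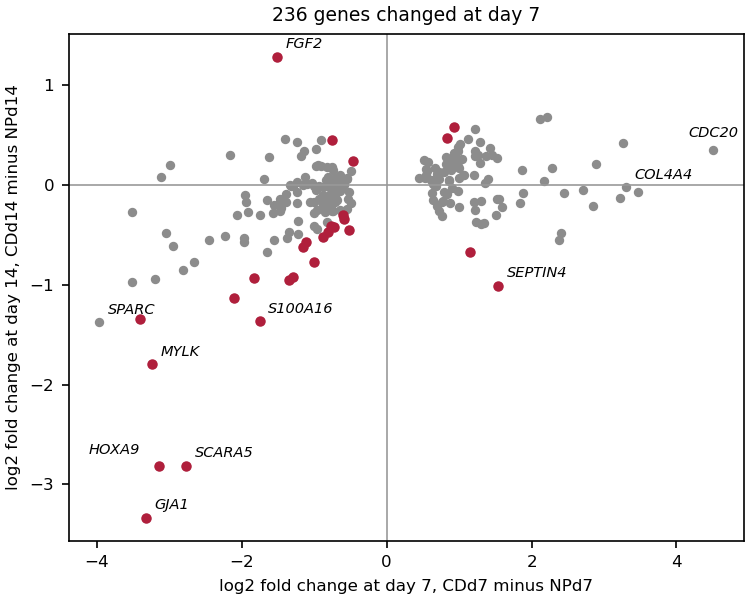
Log2 fold change between outcomes at day 14 (y axis) against that at day 7 (x axis) for the 236 genes changed at day 7; red points had an unadjusted p under 0.05 at day 14. GJA1, SCARA5 and HOXA9 lie near -3 on both axes, most other genes lie near 0 on the y axis, and FGF2 and SEPTIN4 are among those that change sign.

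Of the 27 changed genes with an unadjusted p under 0.05 at day 14, 5 had the opposite sign there: FGF2, GADD45A, SEPTIN4, TFDP2 and HEATR6, the last 3 named after their values were seen. FGF2 was at 6.58, 6.58 and 5.98 in NPd14 and 7.47, 7.98 and 7.53 in CDd14 (1.28 ± 0.35, adjusted p = 0.422), so it was lower in the calf delivery group at day 7 and higher at day 14 with no overlap on either day. GADD45A was at 11.11, 11.47 and 11.33 in NPd14 and 11.74, 11.75 and 11.75 in CDd14 (0.45 ± 0.16, adjusted p = 0.576), again with no overlap on either day. SEPTIN4, a septin GTPase, rose from 8.63, 9.13 and 8.59 to 10.55, 10.10 and 10.31 at day 7 and was at 7.10, 7.82 and 7.46 against 6.04, 7.24 and 6.07 at day 14, where the groups overlapped. TFDP2, a dimerisation partner of E2F factors, was 1.16 ± 0.21 higher at day 7 and had -0.67 ± 0.21 at day 14, and HEATR6 had -0.46 ± 0.11 and 0.24 ± 0.11. The difference of the outcome effect between the days was 2.80 for FGF2, -2.55 for SEPTIN4, -1.83 for TFDP2, 1.20 for GADD45A and 0.70 for HEATR6, with limma adjusted p from 0.192 to 0.230. In the test of that difference 0 of 13449 probe sets passed by limma (503 with weights estimated for the arrays), while 1900 (14.1%) had an unadjusted p under 0.05, so the day 7 changes are not shown here to be particular to day 7.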

How the data were processed

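Endometrial RNA of 12 pools in 4 groups of 3 was measured on arrays. The table the authors deposited holds log2 values from GCRMA, a method that subtracts background, normalizes the arrays and reduces each probe set to 1 value. The submitters' processing notes name GCRMA and limma, with versions not given in the sources used here. Background subtraction compresses dim probe sets, so folds from dim levels depend on the floor. The number of arrays limits the precision.

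Here 112 AFFX control probe sets were dropped, and a log2 value above 4 on at least 3 of 12 arrays was required. Of the kept probe sets 8239 carry 1 symbol, 59 several and 5151 none in the annotation. Of 13318 probe sets annotated with 1 symbol, 35 were not matched by gene identifier and 0 symbols changed. Limma 3.58.1 in R 4.3.3 fitted 4 group means over the 12 arrays (8 residual and 2.13 prior degrees of freedom), with Benjamini-Hochberg adjustment over 13449 probe sets and a two-sided threshold of 0.05. Standard errors are limma's. The scripts were tested on simulated data.

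Members of 45 gene lists (12 of cell types) are described by counts and medians, and lists that are not named in the text are not described. The comparison, the lists and the rules were chosen with earlier results of these data known. Named genes were the 15 largest rises and falls past the threshold with groups apart, the 15 smallest p in each direction, up to 8 members past the threshold of each list or else its 2 smallest p, up to 10 genes that passed in most fits leaving out 1 array, and set genes (PGR, ESR1, OXTR, HOXA10, SERPINA14, SPP1, LPL, MSTN, DKK1, ISG15, MX1). DKK1 was below the filter. For length some are left out. List members given only as values (EPCAM, DCN, VIM, THY1, CD3D, CD3E, CDH1, CCNB1, CCNB2, PCNA, MCM3, CD36) are outside this rule and were chosen as known markers. Alternatives covered the filter, normalization, moderation, array weights, the day 7 arrays alone, a block for pool numbers, means over a gene's probe sets, 2 covariates and each array left out.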

Additional observations from a re-analysis of the deposited data

How the results depend on the processing

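With the 503 changed probe sets and 236 changed genes as reference, the counts were 161 and 65 with no filter, 542 and 254 with quantile normalization, 702 and 361 with trended and robust moderation, 3645 and 1882 with array weights, and 3 and 2 with only the day 7 arrays. They were 0 and 0 with the stromal score as a covariate (367 probe sets at an unadjusted p under 0.05) or the score of control transcripts (1615). Of the 236 genes, 233 and 236 kept their direction in these fits, with a median absolute log2 fold change of 0.73 (SE 0.42) and 0.89 (SE 0.25), beside 1.0 (SE 0.21). Leaving out 1 array gave 0 to 1676 probe sets and 0 to 875 genes. For the difference of the outcome effect between days the count of 0 became 1 with no filter and 503 with array weights, and 0 to 53 with 1 array left out. Of the 119 genes named with values, 878 of their values under alternatives kept the direction but lost the threshold and 17 reversed, none of these for a gene that had passed except COL1A2, COL3A1 and OGN.

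The pool numbers as a replicate block gave 1455 probe sets and 714 genes. Deviations of same-numbered day 7 pools correlated at -0.03, 0.36 and 0.27, and 4 of 6 arrays correlated best with their own number. Those of NPd7 and NPd14 correlated at 0.16, 0.62 and 0.51, and those of CDd7 and CDd14 at 0.24, -0.07 and 0.23. Because not every pair of the groups compared was above 0.1, the pools were taken to share only a number.

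With the stromal score as a covariate the log2 fold changes reversed to 0.28 (COL1A2), 0.25 (COL3A1), 0.35 (OGN), 1.03 (DCN), 0.30 (CD3D), 0.37 (CD3E) and 0.079 (EPCAM, 0.045 with quantile normalization). With the control transcript score they reversed to -0.28 (OXTR) and -0.39 (TEKT1). With 1 array left out, ISG15 ranged from -0.46 (without CDd7 pool 3) to 0.72 (without CDd7 pool 1), MX1 from -0.011 to 0.67 under the same omissions, OXTR from -0.23 (without CDd7 pool 3; -0.038 and -0.20 without NPd7 pools 1 and 3) to 0.49 (without NPd7 pool 2), and THY1 from -0.15 (without NPd7 pool 3) to 0.054 (without CDd7 pool 3; 0.00096 without NPd7 pool 1). The causes were not tested, except that the stromal score is made from the stromal genes themselves.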
